A study of Arabidopsis thaliana with 4 samples.

Results

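The genes described here encode proteins of the small, or 40S, subunit of the cytosolic ribosome in *Arabidopsis thaliana*. The set covers RPSa, RPS2, RPS3, RPS3a, RPS19, RACK1A and other proteins of the subunit, and leaves out some paralogues. Its 51 genes were taken by gene code out of 23049 genes that had a read in at least 1 library. They encode 24 proteins, of which 19 have several genes in the set and 5 have 1. All 51 genes were listed in all 4 libraries and passed the filter on low values (a mean of at least 1 CPM, reads per M reads in genes), with 32 to 35634 reads per gene and library. A search of RefSeq symbols, synonyms and product names found a ribosomal term or RACK1 for 47 of the 51 genes. It did not check which ribosomal protein was named. For the 3 RPS10 genes the family was also checked by protein identity, which lay between 76.7% and 89.4%.

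RNA was sequenced from leaves of 2-week-old plants, raised in soil under long days. By the labels 1 library came from sme1-1 plants exposed to 4 °C for 24 h, 1 from sme1-1 plants at 20 °C, 1 from Col-0 plants exposed to 4 °C for 24 h, and 1 from Col-0 plants at 20 °C. All plants had the Col-0 ecotype background, and Col-0 itself is labelled wild type. The labels name sme1-1 as a genotype and give no further account of the allele, of how many plants were pooled or of replicates. Light during cold exposure was weaker, 40 against 90 µmol m-2 s-1 in growth, so light changes with temperature.

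The 40S subunit binds messenger RNA together with initiation factors, scans for the start codon and monitors the pairing of codon and anticodon. After that step the 60S subunit joins, and the complete ribosome makes protein. In plants nearly every ribosomal protein is encoded by a small family of paralogous genes, so 1 protein in the ribosome can come from several genes. Ribosomal protein genes are known for high expression in growing tissue, where many new ribosomes are assembled in the nucleolus.

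The libraries held 46.8, 45.0, 47.2 and 44.6 M reads in genes for the labels sme1-1 4 °C, sme1-1 20 °C, Col-0 4 °C and Col-0 20 °C. SME1, which encodes the E protein of the Sm ring in spliceosomal particles, went against the labels. It stood at 0.919 and 27.8 CPM in the libraries labelled sme1-1 at 4 °C and 20 °C, against 0.679 and 14.7 CPM in those labelled Col-0 at 4 °C and 20 °C. SME1 was therefore low in both libraries labelled 4 °C and higher in both labelled 20 °C, whichever genotype the label gave. The cold-regulated gene COR15A had 6270 and 5090 CPM in the libraries labelled sme1-1 at 4 °C and 20 °C, against 30.1 and 25.9 CPM in those labelled Col-0 at 4 °C and 20 °C. KIN1, LTI30 and RD29A, other cold-regulated genes, were likewise high in both libraries labelled sme1-1. Whether labels were exchanged was not tested. Every direction below is therefore that of a label, and the genotype label and the level of cold-regulated genes cannot be told apart.

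The 40S genes were well expressed. Together they took 1.03% and 1.17% of all reads in the libraries labelled sme1-1 at 4 °C and 20 °C, against 0.748% and 0.755% in those labelled Col-0 at 4 °C and 20 °C. Both libraries labelled sme1-1 were above both labelled Col-0, by 1.37-fold at 4 °C and 1.55-fold at 20 °C. In whole leaves, fewer cells of a type and less RNA per cell cannot be told apart. Per gene length, the median gene had 200 and 228 RPKM (reads per kilobase of gene and per M reads) in the libraries labelled sme1-1 at 4 °C and 20 °C, against 142 and 150 RPKM in those labelled Col-0 at 4 °C and 20 °C.

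**Figure D1:**
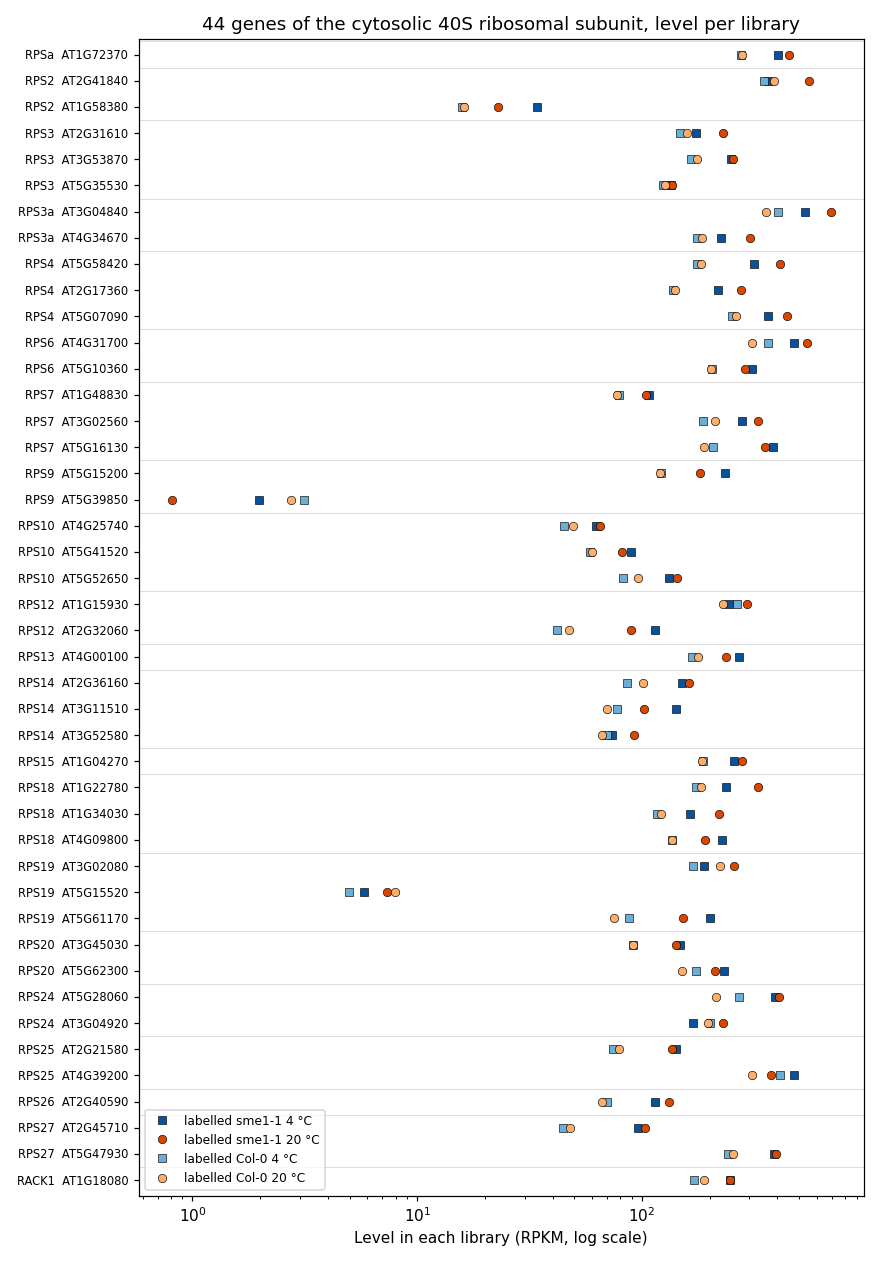
Level of 44 of the 51 genes in each library, in RPKM on a log scale, grouped by protein, with 1 point per library and no error bar because there is 1 library per group. Most genes lie near the medians of 142 to 228 RPKM, and within most rows the dark points of the libraries labelled sme1-1 lie right of the pale points of those labelled Col-0.

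Levels per length differed widely between paralogues of the same protein. For RPS19, AT3G02080 had 189 and 255 RPKM in the libraries labelled sme1-1 at 4 °C and 20 °C, against 168 and 223 RPKM in those labelled Col-0 at 4 °C and 20 °C. Its paralogue AT5G15520 had 5.77 and 7.32 RPKM in the libraries labelled sme1-1 at 4 °C and 20 °C, against 4.96 and 7.97 RPKM in those labelled Col-0 at 4 °C and 20 °C. The lowest mean level of the set belonged to AT5G39850, an RPS9 gene with 1.97 and 0.809 RPKM in the libraries labelled sme1-1 at 4 °C and 20 °C, against 3.14 and 2.75 RPKM in those labelled Col-0 at 4 °C and 20 °C. Such minor genes stand out in the plot of levels as the few rows far to the left.

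Summed over the genes of each protein, the levels were less unequal. RPS4 had the highest sum, with 894 and 1120 RPKM in the libraries labelled sme1-1 at 4 °C and 20 °C, against 563 and 583 RPKM in those labelled Col-0 at 4 °C and 20 °C. RPS26, a protein near the channel where messenger RNA leaves the subunit, had the lowest sum, 114 and 132 RPKM in the libraries labelled sme1-1 at 4 °C and 20 °C, against 70.0 and 66.1 RPKM in those labelled Col-0 at 4 °C and 20 °C. RPS26 has 1 gene in the set, which held at most 14.4% of the reads of the 3 RPS26 genes in any library, so that sum covers a small part of the protein.

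The first comparison was between the genotype labels. Of the 51 genes, 48 had a log2 ratio above 0 for the library labelled sme1-1 4 °C over the one labelled Col-0 4 °C, with a median of 0.55 where the median of all genes that passed the filter was 0.09. At 20 °C, 49 genes had a log2 ratio above 0 for the sme1-1 label over the Col-0 label, with a median of 0.60 where that of all genes was 0.03. At least 1.5-fold higher were 23 genes at 4 °C (24.2% of all genes tested) and 27 at 20 °C (19.4% of all). At least 1.5-fold lower was 1 gene at each temperature label (17.4% of all at 4 °C and 16.8% of all at 20 °C). A 2-fold difference was less common, with 5 genes higher at 4 °C (11.7% of all) and 4 at 20 °C (8.94% of all), and with 0 lower at 4 °C (7.75% of all) and 1 at 20 °C (7.03% of all). Both pairs consist of single libraries, so these ratios have no replicate check.

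Summed by protein, all 24 proteins had a ratio above 1 for the sme1-1 label over the Col-0 label at both temperatures. The ratios ran between 1.09 and 1.89 at 4 °C, the highest for RPS9, with a median of 1.44. At 20 °C they ran between 1.31 for RACK1A and 2.0 for RPS26, with a median of 1.5. Both of these 20 °C values come from 1 gene in the set, with 2 further genes of each protein left out. At 20 °C the paralogues RACK1B and RACK1C had ratios of 3.12 and 2.46. The other RPS26 genes had 1.57 (AT2G40510) and 1.55 (AT3G56340). With TMM factors (a scaling that centres the bulk of genes) the lowest ratio at 4 °C was 1.01, and all 24 still exceeded 1.

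**Figure D2:**
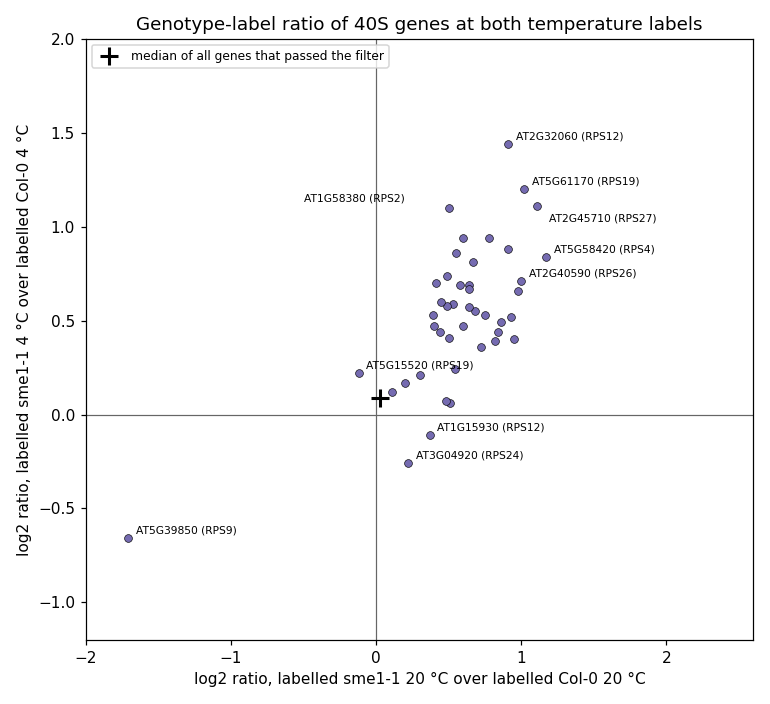
Log2 ratio of the library labelled sme1-1 over the one labelled Col-0 for 44 of the 51 genes, at the 20 °C labels on the horizontal axis and at the 4 °C labels on the vertical axis, with a prior count of 2. The 2 axes share no library. Most points lie in the upper right and above the cross that marks the median of all genes, while AT5G39850 lies alone at the lower left.

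A model with the genotype label and the temperature label as additive terms was fitted with edgeR, using its quasi-likelihood test on all 4 libraries. It gave 39 genes higher and 1 lower with the sme1-1 label at an adjusted p below 0.05. Over all 17218 genes tested it called 42.0% in either direction, 24.2% higher and 17.8% lower. The model leaves 1 residual degree of freedom and takes its spread largely from the other genes, so these p-values do not stand for variation between plants. The median coefficient of the 40S genes was 0.61, against 0.06 for all genes. Every one of the 24 proteins had at least 1 gene called higher. For 14 proteins each gene in the set was called higher, and these 14 include the 5 proteins with 1 gene in the set. With TMM factors the 24 fell to 23 and the 14 to 9, and likewise with DESeq2. With TMM factors 34 genes were called higher (20.5% of all) and 1 lower (20.3% of all), with a median of 0.54. With DESeq2 32 were called higher (16.2% of all) and 0 lower (15.2% of all).

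Genes for RPS12, RPS27, RPS19 and RPS4 had coefficients among the 8 largest of the set. AT2G32060, a gene for RPS12, had 86.7 and 68.1 CPM in the libraries labelled sme1-1 at 4 °C and 20 °C, against 31.9 and 36.2 CPM in those labelled Col-0 at 4 °C and 20 °C. Both sme1-1-labelled libraries were above both Col-0-labelled ones, and the coefficient was 1.18 ± 0.17 (edgeR adjusted p = 4.21e-05). Here and below, ± gives a standard error worked back from the test statistic of the model. It does not stand for variation between plants.

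RPS27 carries a zinc-binding fold, and its gene AT2G45710 had 52.8 and 56.5 CPM in the libraries labelled sme1-1 at 4 °C and 20 °C, against 24.4 and 26.2 CPM in those labelled Col-0 at 4 °C and 20 °C. The 2 ratios were close to each other, 2.17 (95% counting interval 2.02 to 2.32) at 4 °C and 2.15 (2.01 to 2.31) at 20 °C. For RPS19, which sits in the head of the subunit, AT5G61170 had 145 and 111 CPM in the libraries labelled sme1-1 at 4 °C and 20 °C, against 63.5 and 54.5 CPM in those labelled Col-0 at 4 °C and 20 °C. The coefficients were 1.11 ± 0.16 for both genes (edgeR adjusted p = 3.29e-05 for AT2G45710 and 3.93e-05 for AT5G61170).

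AT5G58420, a gene for RPS4, had 339 and 443 CPM in the libraries labelled sme1-1 at 4 °C and 20 °C, against 189 and 196 CPM in those labelled Col-0 at 4 °C and 20 °C. Its coefficient was 1.01 ± 0.17 (edgeR adjusted p = 0.000154). The other 2 RPS4 genes, AT5G07090 and AT2G17360, were also called higher, with coefficients of 0.64 and 0.82. AT5G16130 (RPS7) at 0.89 and AT2G21580 (RPS25) at 0.86 were also among the 8 largest coefficients. RPS6, the substrate of S6 kinase, was called higher through both of its genes, AT4G31700 with a coefficient of 0.60 and AT5G10360 with 0.54.

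RACK1A, a scaffold protein on the head of the 40S subunit, had 333 and 336 CPM in the libraries labelled sme1-1 at 4 °C and 20 °C, against 230 and 257 CPM in those labelled Col-0 at 4 °C and 20 °C. Its coefficient of 0.46 ± 0.16 passed the test with edgeR (adjusted p = 0.0308) but not with TMM factors (adjusted p = 0.0667) or with DESeq2 (adjusted p = 0.0800). The paralogues RACK1B and RACK1C, which are not in the set, had coefficients of 1.42 and 1.39. Among the reads of the 3 genes, RACK1A held 68.3% and 70.0% in the libraries labelled sme1-1 at 4 °C and 20 °C, against 79.0% and 83.1% in those labelled Col-0 at 4 °C and 20 °C.

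The gene called lower was AT5G39850, a minor RPS9 gene. It had 1.73 and 0.711 CPM in the libraries labelled sme1-1 at 4 °C and 20 °C, against 2.76 and 2.42 CPM in those labelled Col-0 at 4 °C and 20 °C. The coefficient was -1.17 ± 0.36 (adjusted p = 0.0144 with edgeR and 0.0524 with DESeq2), and it rests on 32 to 130 reads per library. RPS9 lies with RPS2 and RPS3 where messenger RNA enters. Its main gene, AT5G15200, was called higher at 0.77 and held between 97.6% and 99.6% of the reads of both genes.

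Another 11 genes did not pass the test, and they belong to 9 proteins. Each of these 9 proteins had a paralogue in the set that was called higher. AT3G04920 (RPS24) had 124 and 169 CPM in the libraries labelled sme1-1 at 4 °C and 20 °C, against 149 and 145 CPM in those labelled Col-0 at 4 °C and 20 °C, so the groups overlapped. Its coefficient was -0.02 ± 0.17 (edgeR adjusted p = 0.929). AT5G35530, for RPS3 at the entry of the messenger RNA channel, had 146 and 148 CPM in the libraries labelled sme1-1 at 4 °C and 20 °C, against 134 and 137 CPM in those labelled Col-0 at 4 °C and 20 °C. The further genes of low coefficient were AT5G15520 (RPS19) at 0.04, AT1G15930 (RPS12) at 0.13, AT3G02080 (RPS19) at 0.18 and AT4G39200 (RPS25) at 0.25.

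For 9 of the proteins, then, paralogues stood on different sides of the threshold, which by itself does not show that they differ. The share of each paralogue in the reads of its protein shows the difference directly, and it does not depend on how libraries are scaled. Over the 19 proteins with several genes, the share that moved most had a range over the 4 libraries of 6.68 percentage points at the median. In 14 proteins the range was at least 5 points. No share has a replicate, and the exact binomial intervals given here cover counting error alone.

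RPS19 had the widest range, 25.4 points. AT5G61170 held 48.3% (95% interval 47.4% to 49.1%) and 34.5% (33.7% to 35.3%) of RPS19 reads in the libraries labelled sme1-1 at 4 °C and 20 °C, against 31.4% (30.5% to 32.4%) and 22.8% (22.0% to 23.6%) in those labelled Col-0 at 4 °C and 20 °C. Its share was thus higher with the sme1-1 label at either temperature and higher with the 4 °C label in either genotype. The partner AT3G02080 held most of the rest, 50.4% and 64.0% with the sme1-1 label at 4 °C and 20 °C, against 66.9% and 74.9% with the Col-0 label at 4 °C and 20 °C. The third gene, AT5G15520, held at most 2.30% in any library. Protein identity between the 3 RPS19 genes was 92.3% to 95.8% over 143 residues, and coding identity was 79.6% to 85.0%.

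RPS24 showed the same order of libraries. AT5G28060 held 70.3% and 64.5% of RPS24 reads in the libraries labelled sme1-1 at 4 °C and 20 °C, against 57.9% and 52.6% in those labelled Col-0 at 4 °C and 20 °C. By CPM it had 293 and 307 in the libraries labelled sme1-1 at 4 °C and 20 °C, against 204 and 162 in those labelled Col-0 at 4 °C and 20 °C. Its partner AT3G04920, given above, made up the rest. The proteins of this pair are 95.5% identical over 133 residues.

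In RPS12 the minor gene held a larger share with the sme1-1 label. AT2G32060 held 28.5% and 20.6% of RPS12 reads in the libraries labelled sme1-1 at 4 °C and 20 °C, against 12% and 15.1% in those labelled Col-0 at 4 °C and 20 °C. AT1G15930, the major gene, had 218 and 262 CPM in the libraries labelled sme1-1 at 4 °C and 20 °C, against 235 and 203 CPM in those labelled Col-0 at 4 °C and 20 °C, so its groups overlapped. The proteins of this pair are 84.0% identical, below the median of 93.1% over the 35 pairs of paralogues in the set.

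For RPS25, AT2G21580 held 23.8% and 27.3% of the reads in the libraries labelled sme1-1 at 4 °C and 20 °C, against 15.8% and 21.2% in those labelled Col-0 at 4 °C and 20 °C. Here the share was lower with the 4 °C label in either genotype, unlike in RPS19 and RPS24. These shares leave out 2 RPS25 genes outside the set. Counted with them, AT2G21580 held 21.9% and 24.9% with the sme1-1 label at 4 °C and 20 °C, against 14.7% and 19.4% with the Col-0 label. For RPS7, AT5G16130 held 51% and 45.9% in the libraries labelled sme1-1 at 4 °C and 20 °C, against 44.9% and 40.4% in those labelled Col-0 at 4 °C and 20 °C. RPS7 was 1 of 2 proteins whose leading gene was not the same in every library, since AT3G02560 led with 44.0% in the library labelled Col-0 20 °C. The other was RPS14, a protein of the platform of the subunit, where AT3G11510 led with 40.1% in the library labelled sme1-1 4 °C and AT2G36160 led in the other 3.

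RPS18 offers a case in which the 3 genes encode identical proteins of 152 residues. AT4G09800 held 37.1% and 26.7% of RPS18 reads in the libraries labelled sme1-1 at 4 °C and 20 °C, against 32.9% and 31.8% in those labelled Col-0 at 4 °C and 20 °C. The sme1-1-labelled libraries lay on either side of both Col-0-labelled ones, while both 4 °C-labelled libraries were above both 20 °C-labelled ones, by 10.4 points within the sme1-1 label and by 1.08 points within the Col-0 label. The 2 RPS20 genes of the set also encode identical proteins. Of their reads AT3G45030 held 39.6% and 40.8% with the sme1-1 label at 4 °C and 20 °C. With the Col-0 label it held 35.0% and 38.3% at 4 °C and 20 °C. These shares leave out AT3G47370, an RPS20 gene outside the set. Counted with that gene, AT3G45030 held 32.5% and 36.0% with the sme1-1 label at 4 °C and 20 °C. The Col-0 label then gave 31.0% and 34.0% at 4 °C and 20 °C, so the genotype labels overlapped. AT3G47370 held 18.0% and 11.7% with the sme1-1 label at 4 °C and 20 °C, against 11.4% and 11.3% with the Col-0 label.

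**Figure D3:**
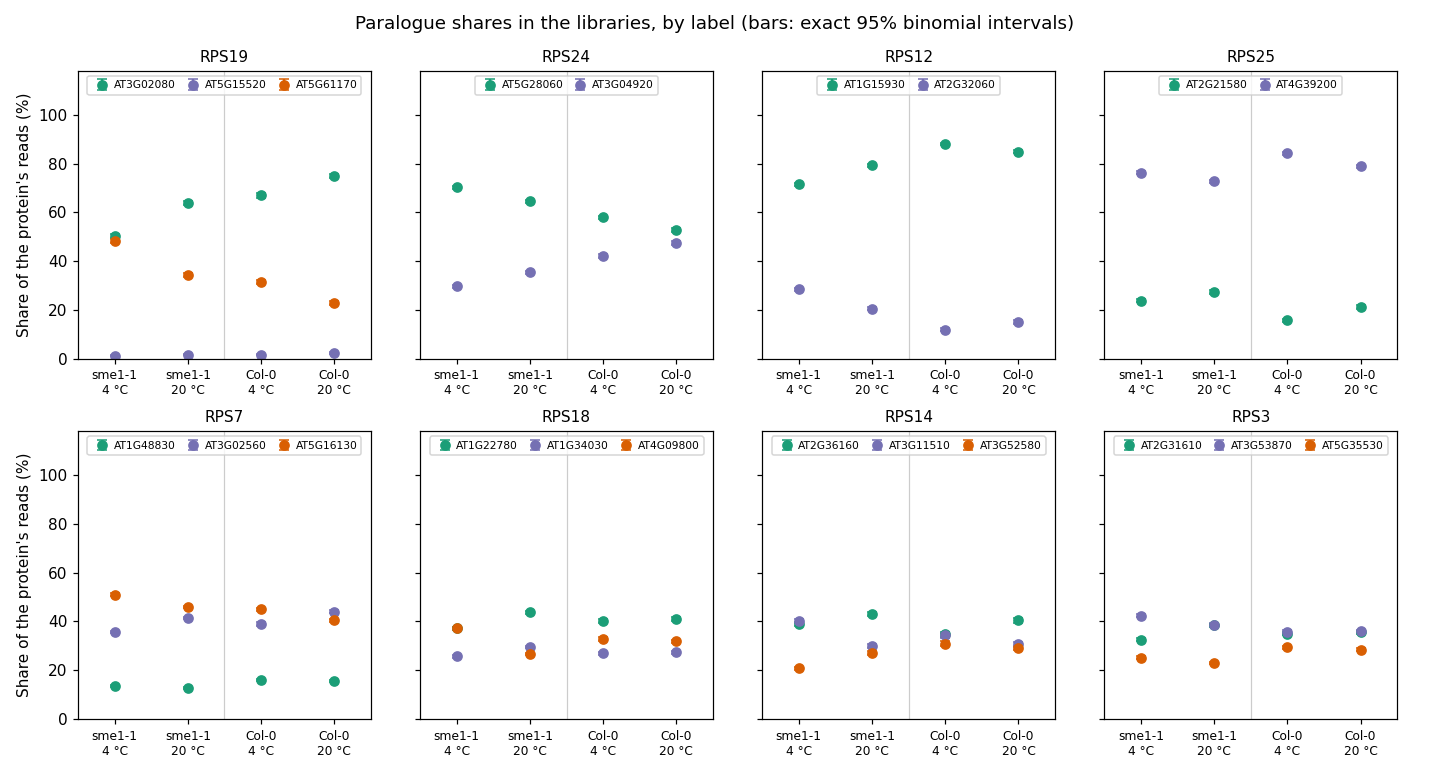
Share of each paralogue in the reads of its protein, in percent, in each library, for 8 of the proteins whose shares moved most, with exact 95% binomial intervals that are mostly smaller than the points. In RPS19, RPS24 and RPS12 both libraries labelled sme1-1 lie on the same side of both labelled Col-0, whereas in RPS18 and RPS14 they do not for every gene.

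Between 2 libraries, the largest share difference within a protein had a median over the 19 proteins of 4.58 points for the sme1-1 label against the Col-0 label at 4 °C and of 5.07 points at 20 °C. For 4 °C against 20 °C it was 4.88 points within the sme1-1 label and 2.53 points within the Col-0 label. The libraries labelled Col-0 were thus the pair closest to each other in paralogue make-up among these 4 pairs.

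The second comparison was between the temperature labels. In the libraries labelled sme1-1, the 4 °C library over the 20 °C library had a median log2 ratio of -0.10 over the 40S genes, against 0.03 over all genes, and 17 genes were above 0. In those labelled Col-0 the median was -0.05, against -0.03 over all genes, with 18 genes above 0 (25 with TMM factors). At least 1.5-fold higher at 4 °C was 1 gene with the sme1-1 label (10.4% of all genes tested) and 0 with the Col-0 label (2.9% of all). At least 1.5-fold lower were 2 genes with the sme1-1 label (9.36% of all) and 1 with the Col-0 label (4.3% of all). A 2-fold difference was reached by 1 gene higher (3.15% of all) and 0 lower (2.47% of all) with the sme1-1 label, and by 0 higher (0.796% of all) and 0 lower (0.778% of all) with the Col-0 label.

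In the additive model the 4 °C label term called 0 of the 51 genes with edgeR, where 2.05% of all genes were called. An unadjusted p below 0.05 was reached by 5 of the 51 genes, and by 2551 of all 17218. TMM factors gave 0 called (1.3% of all genes) and 4 with an unadjusted p below 0.05 (2509 of all 17218). DESeq2 gave 0 called (1.25% of all) and 3 with an unadjusted p below 0.05 (1455 of all 17218). Few genes of any kind were called for this label, and a gene not called is not shown to be equal.

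The gene past 1.5-fold higher was the minor RPS9 gene AT5G39850, with a ratio of 4 °C to 20 °C of 2.43 (95% counting interval 1.6 to 3.79) for the sme1-1 label. AT5G15520, the minor RPS19 gene, had a ratio of 0.788 (0.645 to 0.960) with the sme1-1 label and 0.622 (0.506 to 0.762) with the Col-0 label.

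AT2G41840 was 1 of the 2 genes past 1.5-fold lower with the sme1-1 label, and the 1 with the Col-0 label was AT5G15520. AT2G41840, the main gene of RPS2 at the entry of the messenger RNA channel, had 445 and 675 CPM in the libraries labelled sme1-1 at 4 °C and 20 °C, against 427 and 473 CPM in those labelled Col-0 at 4 °C and 20 °C, a ratio of 4 °C to 20 °C of 0.660 with the sme1-1 label and 0.904 with the Col-0 label. AT4G39200 (RPS25) went the other way, with 319 and 253 CPM in the libraries labelled sme1-1 at 4 °C and 20 °C, against 276 and 206 CPM in those labelled Col-0 at 4 °C and 20 °C, a ratio of 1.26 with the sme1-1 label and 1.34 with the Col-0 label. Summed by protein, the ratios ran between 0.686 and 1.29 with the sme1-1 label, the highest for RPS9, and between 0.841 and 1.25 with the Col-0 label, the highest for RPS25. The RPS2 gene AT1G58380 had 37.8 and 25.4 CPM in the libraries labelled sme1-1 at 4 °C and 20 °C, against 17.6 and 17.9 CPM in those labelled Col-0 at 4 °C and 20 °C. AT1G58380 has near-identical copies in the genome, with 97.5% coding identity, and uniquely mapped reads can miss it, so its value is uncertain.

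Other genes of the translation machinery give the setting, to be read against the 24.2% of all genes called higher and the 17.8% called lower with the sme1-1 label by edgeR. For this label 8572 of all 17218 genes had an unadjusted p below 0.05. Of 38 further 40S genes that passed the filter, 20 (52.6%) were called higher and 0 lower, with 26 at an unadjusted p below 0.05 and a median coefficient of 0.47. Of 111 genes of the 60S subunit, 74 were called higher and 1 lower, with a median of 0.54. All of the 9 initiation factor genes were called higher, with a median of 0.83 (7 with TMM factors and 7 with DESeq2), among them eIF3f at 0.99 and eIF4A1 at 0.94.

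Genes for ribosome assembly had the highest median among these lists, 1.36, and 26 of 27 were called higher and 0 lower by edgeR, with all 27 at an unadjusted p below 0.05. NUC1 encodes nucleolin, a major protein of the nucleolus, and had 640 and 742 CPM in the libraries labelled sme1-1 at 4 °C and 20 °C, against 150 and 184 CPM in those labelled Col-0 at 4 °C and 20 °C. FIB2 encodes fibrillarin, which methylates ribosomal RNA, and its coefficient was 2.29. ENP1 and NOB1, which act in the maturation of the 40S subunit, had coefficients of 1.71 and 1.07.

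Of 9 nuclear genes for the small subunit of the plastid ribosome, 0 had a coefficient above 0. By edgeR 0 were called higher and 2 lower, or 22.2%, near the 17.8% of all genes called lower (4 lower with TMM factors, where 20.3% of all were). The median was -0.34, and 4 of the 9 had an unadjusted p below 0.05, where 8572 of all 17218 genes did. S6K1, a kinase that phosphorylates RPS6, had 127 and 147 CPM in the libraries labelled sme1-1 at 4 °C and 20 °C, against 381 and 376 CPM in those labelled Col-0 at 4 °C and 20 °C. Its coefficient was -1.47 (edgeR adjusted p = 3.10e-06), and that of S6K2 was -0.65, while TOR itself had 0.24 and did not pass.

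**Figure D4:**
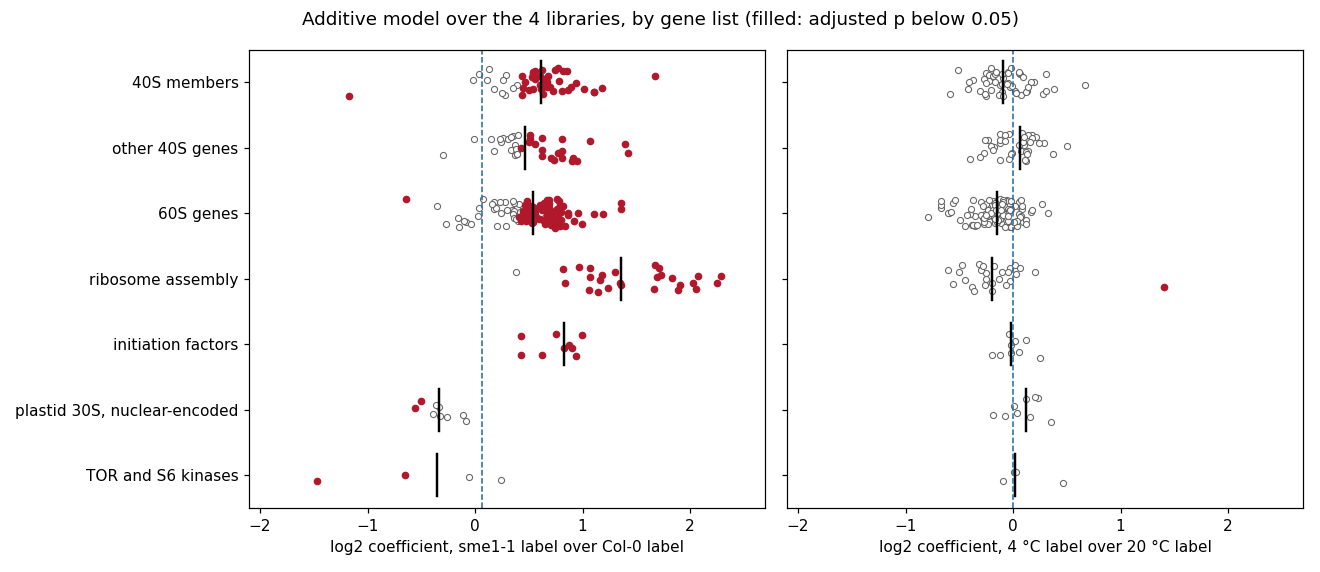
Log2 coefficients of the additive model for the sme1-1 label (left) and the 4 °C label (right) in each gene list, 1 point per gene, filled where the adjusted p from edgeR was below 0.05, with the list's median as a black bar and the median of all genes as a dashed line. The 40S genes centre on 0.61 on the left and on -0.09 on the right.

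Cell type markers moved with the same label in part. Markers of photosynthetic leaf cells were abundant in all libraries, and summed to 40600 and 41200 CPM in the libraries labelled sme1-1 at 4 °C and 20 °C, against 59200 and 57100 CPM in those labelled Col-0 at 4 °C and 20 °C. Of these 5 markers, edgeR called 2 lower with the sme1-1 label (RCA and CA1), where 17.8% of all genes were called lower. It called 0 higher, and 2 had an unadjusted p below 0.05, where 8572 of all 17218 genes did. The coefficient was above 0 for 2 of the 5, and 1 marker was at least 1.5-fold higher with the sme1-1 label at 4 °C. The 6 markers of dividing and meristem cells summed to 49.0 and 57.2 CPM in the libraries labelled sme1-1 at 4 °C and 20 °C, against 76.7 and 72.1 CPM in those labelled Col-0 at 4 °C and 20 °C. The difference lay mainly in CYCD3;1, which was called lower and had 16.6 and 25.5 CPM in the libraries labelled sme1-1 at 4 °C and 20 °C, against 40.8 and 41.7 CPM in those labelled Col-0 at 4 °C and 20 °C. Without it the sums were 32.4 and 31.7 CPM in the libraries labelled sme1-1 at 4 °C and 20 °C, against 36.0 and 30.4 CPM in those labelled Col-0 at 4 °C and 20 °C. The other 5 did not pass, among them CYCB1;1 with 7.16 and 5.07 CPM for the sme1-1 label at 4 °C and 20 °C, against 7.32 and 4.57 CPM for the Col-0 label at 4 °C and 20 °C. The 3 root markers summed to 110 and 100 CPM with the sme1-1 label at 4 °C and 20 °C. With the Col-0 label the sums were 213 and 195 CPM at 4 °C and 20 °C. PYK10, which was called lower, made up most of each sum. It had 90.4 and 70.9 CPM with the sme1-1 label at 4 °C and 20 °C, against 191 and 168 CPM with the Col-0 label. MYB36, a root marker, was at 0 in the library labelled Col-0 4 °C. The lowest of the 3 root markers had at most 0.0889 CPM in any library, so this 0 does not set that library apart. The 3 seed markers summed to at most 0.178 CPM and the 3 flower markers to at most 1.01 CPM in any library, and the seed marker SESA1 was at 0 in 3 libraries. The part of these cell types in the 40S results was not tested.

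The sequence just upstream of the genes was read from the RefSeq TAIR10.1 genome, over 250 bases before each annotated start. Plant ribosomal protein promoters are known for the telo box, searched here as AAACCCTA, and for site II elements, searched as TGGGCC and TGGGCT. All were searched on both strands. A site II element was found for 35 of the 51 genes (68.6%), against 19.2% of all 27437 protein-coding genes, and a telo box for 9 (17.6%), against 4.49% of all. For 60S genes the shares were 70.2% and 23.7%. These matches are a description and not binding sites. The median sme1-1 label coefficient was 0.60 over the 35 genes with a site II element and 0.63 over the 16 without, and 0.64 over the 9 genes with a telo box and 0.60 over the 42 without.

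The 104 bases before the start are shown for AT2G32060, with one of the largest sme1-1 label coefficients, and for AT5G39850 and AT3G04920, with the 2 smallest. They are also shown for the RPS12 and RPS24 partners, which hold the rest of the reads of their protein. At this length none of the 5 windows overlaps a neighbouring gene. Each is written 5′ to 3′ on the strand of its gene, and capitals mark telo box and site II letters on either strand. In genome order the windows are chr1:5471212-5471315 (plus strand) for AT1G15930, chr2:13640432-13640535 (minus) for AT2G32060, chr3:1360733-1360836 (plus) for AT3G04920, chr5:10070900-10071003 (minus) for AT5G28060 and chr5:15949806-15949909 (plus) for AT5G39850.
AT2G32060 (RPS12, coefficient 1.18): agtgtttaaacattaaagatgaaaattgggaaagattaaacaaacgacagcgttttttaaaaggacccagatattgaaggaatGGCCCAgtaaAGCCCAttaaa
AT1G15930 (RPS12, coefficient 0.13): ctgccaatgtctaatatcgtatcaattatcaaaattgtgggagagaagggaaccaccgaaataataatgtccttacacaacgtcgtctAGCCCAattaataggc
AT5G28060 (RPS24, coefficient 0.72): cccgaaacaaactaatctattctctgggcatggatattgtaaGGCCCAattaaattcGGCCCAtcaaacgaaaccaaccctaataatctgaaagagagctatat
AT3G04920 (RPS24, coefficient -0.02): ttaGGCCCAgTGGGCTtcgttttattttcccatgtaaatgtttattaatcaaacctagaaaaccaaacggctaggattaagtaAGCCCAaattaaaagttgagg
AT5G39850 (RPS9, coefficient -1.17): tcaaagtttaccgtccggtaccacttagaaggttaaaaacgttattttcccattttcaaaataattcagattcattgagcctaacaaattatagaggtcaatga
The window of AT5G39850 held none of these motifs. In RPS12, AT2G32060 had 2 site II elements in its window and AT1G15930 had 1. In RPS24, where the share of AT5G28060 was higher with the sme1-1 label, AT5G28060 had 2 and AT3G04920 had 3.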

How the data were processed

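Leaf RNA was sequenced in 4 libraries, 1 per group, and the labels gave the groups. Each deposited table lists, per the file headers, a count of uniquely mapped reads per gene, the percent of the gene covered by reads, the gene length and RPKM. Per the file headers these counts and RPKM are the authors' values, and per the submitters' processing notes the build was TAIR10. The aligner, the counting program and the strand setting are unknown here (not given in the sources used), so sense and antisense reads cannot be told apart. Reads of near-identical copies can be missed. The deposited percent coverage was 68.15 or more for every gene of the set.

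Where a table lacks a gene its count was set to 0, and counts were scaled to the file total (CPM). The test covered genes whose mean was 1 CPM or more. Ratios of 2 libraries have exact 95% intervals for counting error, and log2 ratios used a prior count of 2. Paralogue shares have exact Clopper-Pearson intervals. Reads are not independent molecules, so intervals cover counting error only. The additive model was fitted with edgeR 4.0.16 (quasi-likelihood, Benjamini-Hochberg adjustment over 17218 genes, common dispersion 0.0213, prior degrees of freedom 15.6). Its code was also run on simulated counts with additive changes only, which tells nothing about variation between plants. Alternatives were TMM factors, DESeq2 1.42.0, no filter, a 2-fold threshold, a prior count of 0.5 and shares from RPKM. Also used were Biopython 1.88, scipy 1.17.1, Python 3.11.15 and R 4.3.3. Depth was 44.6 to 47.2 M reads per library.

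The members and lists were chosen with earlier results of these data known. Some genes that the naming rule picks, and their upstream windows, are not reported here, while counts and medians include them. The rule takes RACK1A, the 8 largest and 8 smallest coefficients of each label, genes 2-fold apart in any pair, the genes of the 8 proteins with the widest share range, the highest and lowest mean RPKM, and for each other list the largest coefficients. RPS6, RPS20, RPS26, AT5G07090, AT2G17360, NOB1, ENP1, TOR, CYCB1;1 and both partner windows were chosen after their values were seen. Gene products and sequences came from the RefSeq TAIR10.1 annotation by gene code. That SME1 is AT2G18740 is background knowledge. No protein sequences are printed.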

Additional observations from a re-analysis of the deposited data

Results flagged for a closer look

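In 5 cases the ratio went one way in one pair of libraries and the opposite way in the other pair, and no difference between them was tested, since each ratio rests on 2 single libraries. For the sme1-1 label over the Col-0 label, AT3G04920 (RPS24) had a ratio of 0.834 at 4 °C and 1.16 at 20 °C, and AT1G15930 (RPS12) had 0.927 at 4 °C and 1.29 at 20 °C. For the 4 °C label over the 20 °C label, AT2G32060 (RPS12) had a ratio of 1.27 with the sme1-1 label and 0.883 with the Col-0 label. AT1G15930 (RPS12) had 0.829 with the sme1-1 label and 1.15 with the Col-0 label. AT5G28060 (RPS24) had 0.954 with the sme1-1 label and 1.27 with the Col-0 label.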

How the results depend on the processing

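No paired analysis was possible because the labels carry no replicate numbers and each group has 1 library, and for the same reason no replicate could be left out. The number of genes called higher with the sme1-1 label was 39 with file totals, 34 with TMM factors, 32 with DESeq2 and 39 with no filter. DESeq2 called 0 genes lower, where edgeR called 1. With DESeq2 38 of the 51 genes had an unadjusted p below 0.05 in either direction, and 6911 of all 17218 did. Of 64 single results (the 2 label coefficients of the 32 genes that the naming rule picks), 5 lost the call with DESeq2, 3 with TMM factors and 0 with no filter, and 0 changed direction while called. With a threshold of 2-fold in place of 1.5-fold, the genes higher with the sme1-1 label were 5 in place of 23 at 4 °C and 4 in place of 27 at 20 °C. The genes lower were then 0 in place of 1 for the sme1-1 label over the Col-0 label at 4 °C, 0 in place of 2 for 4 °C over 20 °C with the sme1-1 label, and 0 in place of 1 with the Col-0 label. Proteins with a share range of at least 5 points numbered 14 by counts and 15 by RPKM. An alternative chosen after seeing the data added the other 40S genes of a protein. It concerned 9 proteins, 6 of them then with a range of at least 5 points, and over the 4 that already had several genes in the set the number was 3 in place of 2. With 1 library per group, no value here has a measure of variation between plants.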
